A study of Mus musculus with 7 samples.

Results

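Colon epithelium of mice given PhIP and then DSS was compared between 3 days and 1 day after DSS ended. Each day is 1 pooled library, so the pair makes up 2 of the 7 libraries of the series. The mice were 6-week-old female hCYP1A animals on a C57BL/6 background, a line humanized for the CYP1A enzymes that activate PhIP. They received PhIP, a heterocyclic amine that forms on cooked meat, in 2 doses of 100 mg/kg given 4 days apart, and a week later 1.5% dextran sulfate sodium (DSS), a polymer that injures the colon lining, in drinking water for 5 days. For every library the epithelium was scraped off the muscle layer and RNA of 3 mice was pooled in equal amounts. The labels record colitis on day 3 and on day 1. Codes given with the deposited tables carry later day numbers than the labels, in the same order, and the days used here are those of the labels. Beside the pair stand day 3 and day 1 of the same strain and sex given DSS alone, PhIP/DSS on day 7, and an untreated control, again 1 pool of 3 mice each. With 1 library a day no difference was tested, and a difference between the days cannot be told apart from one between the pools of animals.

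The PhIP/DSS libraries held 8.42 M unique reads (M stands for 1000000) on day 3 and 8.54 M on day 1, and the 7 libraries held between 7.66 M and 8.78 M. Of 16798 genes with at least 1 read in the pair, 13608 had at least 10 reads summed over both days and were compared. The ratio of a gene is its reads per 1000000 unique reads (RPM) on day 3 divided by its RPM on day 1. A gene is called lower or higher where this ratio is 2-fold or more from 1. Exact 95% intervals and the floor of 3 reads, which replaces a count of 0, cover counting error only and no spread between animals or pools. Polymerase chain reaction copies of a molecule cannot be recognised, so the intervals may be too narrow even for counting error. Of the epithelial genes checked all but Car1 lay within 2-fold. The pan-epithelial Epcam had 902 RPKM (RPM per kilobase of gene) on day 3 and 860.0 on day 1, Krt8 had 3628 on day 3 and 3619 on day 1, and Vil1 had 305 on day 3 and 294 on day 1. Less level were the intestinal factor gene Cdx2 (1.53-fold lower), the mucin gene Muc2 (1.69-fold higher) and the colonocyte gene Car1 (2.63-fold lower). Mouse Cyp1a1 and Cyp1a2 had 0 reads in all 7 libraries.

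In DSS colitis the epithelial barrier is breached and bacteria meet the tissue below. Resident cells and the epithelium then release cytokines of the IL-1 and IL-6 families and chemokines that draw neutrophils and monocytes out of the blood. Healing begins when this recruitment stops, goblet cells refill the mucus layer, and crypts replace lost colonocytes with their transport proteins. PhIP is turned into a DNA-reactive form by CYP1A enzymes and is used with DSS in rodents as a model of colon cancer on a background of colitis.

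On day 3 most genes of the cytokine, chemokine, neutrophil and macrophage lists stood far below their day 1 levels. Other inflammatory lists were nearer to level, with 25 of 31 interferon response genes and 11 of 19 antimicrobial genes within 2-fold. Of goblet cell genes 8 of 22 were higher on day 3, and of ion and water transport genes 5 of 25. Of the 13608 genes compared, 1368 (10.1%) were lower on day 3, 682 (5.01%) were higher and 11558 (84.9%) lay within 2-fold. The median log2 ratio over all of them was -0.04. The shares of 10.1% lower and 5.01% higher are those to set beside the counts of each list below. The genes of 46 lists were chosen for this tissue with earlier results of these data known, so counts over the lists are a description. Of these lists, 11 had a median at least 2-fold lower and 0 had one at least 2-fold higher. The farthest below 0 were neutrophil genes (median log2 ratio -4.48), adipocyte markers (-3.98), erythrocyte and platelet genes (-3.23) and neutrophil-attracting chemokines (-2.94). The farthest above 0 were the chloride channel accessory (CLCA) family (0.94) and goblet cell genes (0.91). Members under 10 reads on both days together are outside these counts, so a list with many rare genes is described by its better expressed members.

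**Figure D1:**
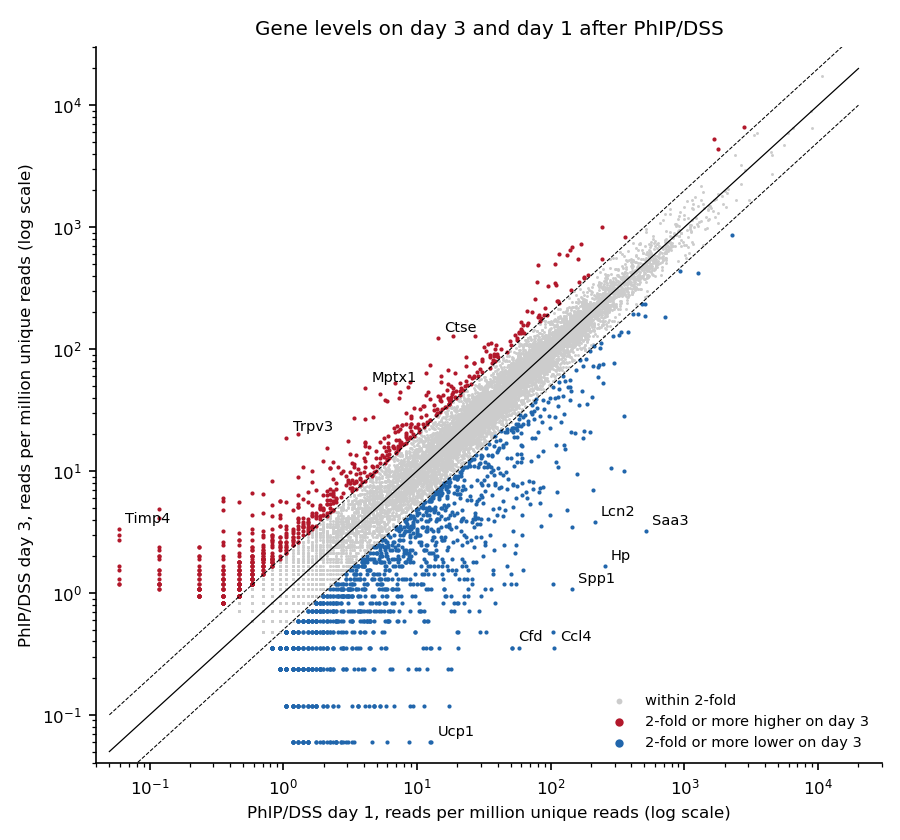
Each point is 1 of the 13608 genes, with its RPM in PhIP/DSS on day 3 (vertical, log scale) and on day 1 (horizontal, log scale), counts of 0 drawn at 0.5 reads, and dashed lines at 2-fold. The 1368 genes in blue (lower on day 3) reach farther from the diagonal than the 682 in red (higher on day 3).

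Cytokines that start the inflammatory cascade were lower on day 3 almost throughout. Of 10 genes on the list, which holds the IL-1 and IL-6 families, their blocking receptors and Tnf, 9 were lower, where 10.1% of all genes were, and the list's median log2 ratio was -2.06. In bulk RNA, fewer cells of a type and less RNA per cell cannot be told apart, here and for every cell-type gene below. Il1b, a fever-inducing cytokine cut by caspase-1, had 7.51 RPKM on day 3 and 263 RPKM on day 1, 35.1-fold lower (95% interval 28.3 to 44.1). Il1a, an alarm signal of dying epithelial cells, had 0.601 RPKM on day 3 and 27.9 on day 1, 46.4-fold lower. Osm, an IL-6 family cytokine that acts on stromal cells, had 2 reads on day 3 and 152 on day 1, a 75.0-fold difference with an interval of 20.4 to 625. The receptor antagonist Il1rn, which blocks IL-1 signalling, had the most reads of the list and was lower by less, at 73.4 RPKM on day 3 against 289 on day 1 (3.94-fold). The decoy receptor Il1r2 differed more, with 0.698 RPKM on day 3 and 13.2 on day 1 (18.9-fold lower). Tnf was 3.29-fold lower, at 6.67 RPKM on day 3 and 21.9 on day 1, and Il33, an alarmin stored in nuclei, 4.43-fold lower, at 3.02 RPKM on day 3 and 13.4 on day 1. Il6 itself was rare, with 0 reads on day 3 and 10 on day 1. At the floor of 3 reads it was 3.29-fold lower (interval from 2.21 up). Lif was the member within 2-fold, at 2.04 RPKM on day 3 and 2.45 on day 1.

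Chemokines that call neutrophils went the same way. Of 9 genes compared on this list of 11, which also holds the growth factor Csf3 and its receptor, 7 were lower (median -2.94). Cxcl2 had 3.29 RPKM on day 3 and 78.3 on day 1, 23.8-fold lower, and Cxcl3 had 1.04 RPKM on day 3 and 34.6 on day 1, 33.3-fold lower. Both are ligands of the receptor CXCR2. Csf3, the factor that releases neutrophils from bone marrow, had 0 reads on day 3 and 107 on day 1. At the floor of 3 reads it was 35.2-fold lower (interval from 28.1 up). Cxcl1 differed less, with 3.08 RPKM on day 3 and 10.3 on day 1 (3.36-fold lower). Cxcl5, which epithelial cells make, lay within 2-fold at 11.9 RPKM on day 3 and 21.5 on day 1. Il17a and Il23a, upstream cytokines on the same list, stayed under the read minimum.

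Cxcl1, Cxcl2 and Cxcl3 stand close together on chromosome 5 and are known targets of the factor NF-kB, as is Il6. Their promoter windows, from RefSeq on GRCm38.p6, are shown because these genes were lower on day 3 together and each window holds 1 match to a 9-letter NF-kB-like string, GGANTTTCC (GGAAANTCC on the other strand), printed in capitals. The windows run from 250 bases before the transcription start to 50 bases from the start on, all on the plus strand. They lie at chr5:90890995-90891294 for Cxcl1, chr5:90903649-90903948 for Cxcl2, chr5:90785851-90786150 for Cxcl3 and chr5:30012864-30013163 for Il6.
Cxcl1: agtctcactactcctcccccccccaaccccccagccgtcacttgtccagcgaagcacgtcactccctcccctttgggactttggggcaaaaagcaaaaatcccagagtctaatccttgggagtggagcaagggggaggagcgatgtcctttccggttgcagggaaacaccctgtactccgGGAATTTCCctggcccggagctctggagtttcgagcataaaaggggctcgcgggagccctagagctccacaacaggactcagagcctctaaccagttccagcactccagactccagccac
Cxcl2: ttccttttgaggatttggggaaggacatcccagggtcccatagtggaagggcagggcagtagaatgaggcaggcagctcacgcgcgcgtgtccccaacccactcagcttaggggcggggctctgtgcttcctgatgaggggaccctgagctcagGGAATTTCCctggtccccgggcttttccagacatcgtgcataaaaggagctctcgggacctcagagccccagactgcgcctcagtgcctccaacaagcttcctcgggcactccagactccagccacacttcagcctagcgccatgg
Cxcl3: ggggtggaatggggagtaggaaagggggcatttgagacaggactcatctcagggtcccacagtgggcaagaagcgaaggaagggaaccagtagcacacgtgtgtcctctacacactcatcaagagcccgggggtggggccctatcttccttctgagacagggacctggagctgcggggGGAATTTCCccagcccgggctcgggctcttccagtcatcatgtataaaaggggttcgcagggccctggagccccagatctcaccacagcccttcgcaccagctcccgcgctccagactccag
Il6: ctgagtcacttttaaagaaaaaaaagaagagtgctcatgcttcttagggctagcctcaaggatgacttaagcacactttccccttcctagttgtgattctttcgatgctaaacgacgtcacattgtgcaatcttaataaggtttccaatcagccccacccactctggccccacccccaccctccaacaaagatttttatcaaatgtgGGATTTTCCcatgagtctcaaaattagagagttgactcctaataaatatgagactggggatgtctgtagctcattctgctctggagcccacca
The first letter of the string lies 70 bases before the start in Cxcl1, 96 in Cxcl2, 72 in Cxcl3 and 43 in Il6. The string was settled on after matches of several strings had been seen, so the shares that follow are a description. A gene with several windows counts once, where any of them holds the string. It occurs in 392 of 27025 genes with a window (1.45%) and in 186 of 10841 compared genes (1.72%). Among genes lower on day 3 it occurs in 37 of 1039 (3.56%), and among genes higher on day 3 in 6 of 518 (1.16%). Among list genes with a window it was in 3 of 7 neutrophil-attracting chemokine genes and 1 of 9 cytokine genes.

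CC chemokines, which attract monocytes and lymphocytes, held the largest ratios of all genes compared and also genes that went the other way. Of 14 genes compared on the list of 15, receptors included, 10 were lower and 2 higher. Ccl4 (chromosome 11, 83648624 to 83664683, mm10 as for all positions of genes) had 3 reads on day 3 and 896 on day 1, or 0.528 RPKM on day 3 and 156 on day 1, a 295-fold difference with an interval of 101 to 1432. Its neighbour Ccl3 had 4 reads on day 3 and 881 on day 1, 217-fold lower (84.6 to 799.5). Macrophages and neutrophils are the usual source of both. Ccl2, the main monocyte attractant, had 0.884 RPKM on day 3 and 9.16 on day 1 (10.4-fold lower), and Ccl5 had 2.26 on day 3 and 26.9 on day 1 (11.9-fold lower). The receptor Ccr1 was 7.72-fold lower, at 1.22 RPKM on day 3 and 9.39 on day 1. Among the higher genes, Ccl6 had 248 RPKM on day 3 and 55.1 on day 1 (4.50-fold higher), with 196 in the control. Ccl28, which draws IgA plasma cells to mucosa, had 2107 reads on day 3 and 961 on day 1 (2.22-fold higher), with 1385 in the control.

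Genes of the cells that answer these signals differed most as a group. Of 23 neutrophil granule and receptor genes compared, 21 were lower on day 3 and 1 was higher. S100a9, a calprotectin subunit, had 14.4 RPKM on day 3 and 426 on day 1 (29.7-fold lower), and its partner S100a8 had 11.2 RPKM on day 3 and 250.1 on day 1 (22.3-fold lower). Clec4e, a receptor for microbial glycolipids, had 0.471 RPKM on day 3 and 41.4 on day 1 (87.8-fold lower). Some genes of later granules had few reads on day 3. Ngp had 1 read on day 3 and 147 on day 1 (ratio of day 1 over day 3 145, interval 25.6 to 5768), Retnlg had 7 reads on day 3 and 327 on day 1 (46.1-fold lower), and Mmp8 had 4 reads on day 3 and 254 on day 1 (62.7-fold lower). The early granule gene Mpo had 0 reads on both days. Cd177 was the exception, with 218 RPKM on day 3 and 41.9 on day 1 (5.21-fold higher), against 26.5 in the control, where Mmp8, Ngp and Clec4e had 0 reads. Slfn4, within 2-fold, had 45.7 RPKM on day 3 and 28.5 on day 1, and 17.3 in the control. These genes hold most of the list's reads on day 3, and its summed level was 828 RPM on day 3 and 1347 on day 1.

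Macrophage and monocyte markers were lower in 18 of 20 genes compared (median -2.83). Spp1, the secreted protein osteopontin, had 0.704 RPKM on day 3 and 94.8 on day 1 (135-fold lower, 70.6 to 295). Chil3, a marker of activated macrophages, had 3 reads on day 3 and 496 on day 1 (163-fold lower, 55.5 to 794). Those 2 genes went farthest, and lineage genes differed by a smaller factor. Csf1r, the receptor that keeps macrophages alive, had 2.05 RPKM on day 3 and 15.8 on day 1 (7.67-fold lower), and Cd68 had 5.06 on day 3 and 51.9 on day 1 (10.3-fold lower). Cd14, the endotoxin co-receptor and the most read member, was 3.84-fold lower at 51.6 RPKM on day 3 and 198 on day 1. Mrc1 and Ms4a7, markers of resident tissue macrophages, lay within 2-fold at 1.47 and 1.66 RPKM on day 3 and 1.83 and 2.45 RPKM on day 1. The complement genes C1qa, C1qb and C1qc, from the same kind of cell, were 2.12-, 3.32- and 2.31-fold lower. Summed over the list, the level was 1171 RPM on day 1, 217 on day 3 and 420.3 on day 7, with 103 in the control.

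Lymphocyte and mast cell markers differed less. Of 15 T and NK cell markers, 7 were lower, 0 higher and 8 within 2-fold (median -0.83). Cd3e and Cd3d of the T cell receptor complex lay within 2-fold at 20 and 9 reads on day 3 and 20 and 8 reads on day 1. Cd3g of the same complex had 3 reads on day 3 and 11 on day 1 (3.62-fold lower, 0.956 to 20.2). Cd4 had 14 reads on day 3 and 50 on day 1 (3.52-fold lower, 1.92 to 6.90), and Prf1 had 0 on day 3 and 12 on day 1. Gzmb, a killing granule protease, had 1.59 RPKM on day 3 and 4.87 on day 1 (3.06-fold lower). Among 12 B and plasma cell markers 3 were lower, while Jchain, which joins IgA units, lay within 2-fold at 16.5 RPKM on day 3 and 26.3 on day 1. Mast cell proteases were level, with Mcpt1 at 22.1 RPKM on day 3 and 20.2 on day 1. On that list Kit, its most read member, was the gene higher on day 3, at 7.39 RPKM on day 3 and 2.84 on day 1 (2.61-fold). The control had 15.2 RPKM of Kit and 10.7 of Mcpt1. The eosinophil gene Prg2 had 0 reads on both days.

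Markers of tissue beneath the epithelium were lower as well. Fibroblast and matrix genes were lower in 19 of 22 (median -1.95), within a narrow range for the main collagens. Col3a1 had 10.5 RPKM on day 3 and 40.4 on day 1 (3.84-fold lower), Col1a1 was 3.64-fold lower and Col4a1, of basement membranes, 4.41-fold lower. Dcn, a small proteoglycan of fibroblasts, differed more, with 6.29 RPKM on day 3 and 58.4 on day 1 (9.29-fold lower), as did Tnc, a matrix protein of wounds, with 0.953 on day 3 and 9.24 on day 1 (9.70-fold lower). Endothelial markers were lower in 10 of 12, among them Plvap (0.759 RPKM on day 3 and 5.70 on day 1), and Vwf was higher, at 38 reads on day 3 and 14 on day 1. Smooth muscle markers lay mostly within 2-fold (1 of 6 lower), with Tagln at 7.71 RPKM on day 3 and 6.80 on day 1 and Mylk at 9.73 on day 3 and 12.4 on day 1. Of the nerve and glia genes, Sox10 and S100b had 0 reads on both days. Skeletal muscle genes gave 2 comparable members, both within 2-fold.

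Adipocyte markers were lower in 9 of 10 (median -3.98). Cfd, the complement protease adipsin, had 3 reads on day 3 and 436 on day 1 (143-fold lower, 48.8 to 698). Fabp4, a fatty acid carrier of adipocytes and macrophages, had 0.735 RPKM on day 3 and 51.1 on day 1 (69.6-fold lower). Adipoq, the hormone adiponectin, had 2 reads on day 3 and 73 on day 1 (36.0-fold lower, 9.62 to 303), and the lipid droplet coat gene Plin1 had 0 on day 3 and 23 on day 1. Pck1, which colonocytes also express, was the member within 2-fold (20.6 RPKM on day 3 and 15.1 on day 1). Some of these genes had reads without treatment too, with 60 reads of Cfd in the control and 0 and 1 in DSS on day 3 and day 1. Pck1, with 1253 reads in the control, makes up most of the summed level of the list there. Globin genes were lower as well. Hbb-bs had 2.60 RPKM on day 3 and 73.9 on day 1 (28.4-fold lower), and Alas2, the first enzyme of heme synthesis in red cell precursors, had 2 reads on day 3 and 54 on day 1 (26.6-fold lower, 7.03 to 226). The platelet receptor gene Itga2b was the one higher gene of that list, at 10 reads on day 3 and 5 on day 1. Genes of fat, blood and stroma thus took a smaller share of reads in the day 3 pool than in the day 1 pool, and their part in the other differences between the days was not tested.

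**Figure D2:**
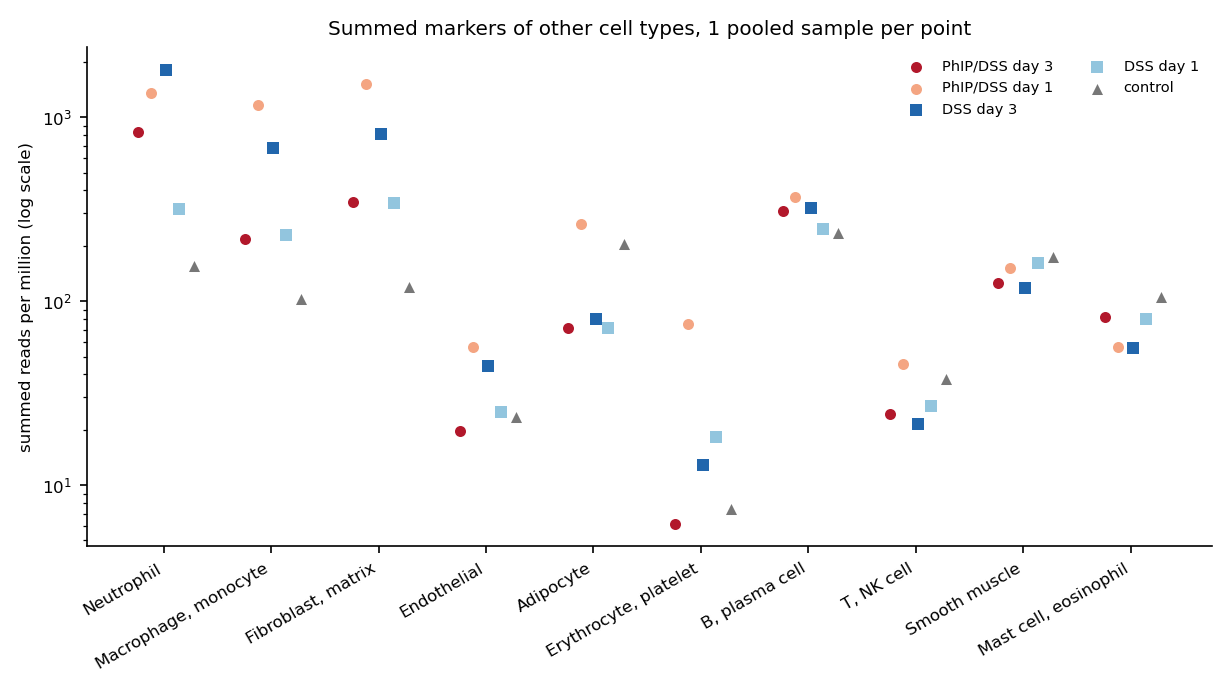
Summed RPM (log scale) of 10 marker lists of other cell types in PhIP/DSS day 3, PhIP/DSS day 1, DSS day 3, DSS day 1 and the control, 1 pooled library per point. In PhIP/DSS the day 3 point lies below the day 1 point for all lists but that of mast cells and eosinophils, where Kit was the gene higher. It lies at 217 on day 3 and 1171 on day 1 for macrophages and 6.17 on day 3 and 75.2 on day 1 for erythrocytes and platelets.

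Matrix proteases and their inhibitors were lower in 12 of 16 (median -2.64). Timp1, an inhibitor induced in injured tissue, had 0.787 RPKM on day 3 and 32.4 on day 1 (41.1-fold lower). The stromelysin Mmp10, made by wound-edge epithelium and macrophages, had 2.55 RPKM on day 3 and 35.4 on day 1 (13.9-fold lower), and the collagenase Mmp13 had 2.75 on day 3 and 32.8 on day 1 (11.9-fold lower). Mmp3 was almost absent on day 3, with 1 read against 76 on day 1 (interval 13.1 to 3001). Mmp7, matrilysin, which activates defensins in the mouse small intestine and is made by epithelium, was the one gene higher, with 27.0 RPKM on day 3 and 8.81 on day 1 (3.07-fold), against 0.297 in the control. Mmp14, the most read member, lay within 2-fold at 33.4 RPKM on day 3 and 47.8 on day 1.

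The list of the antimicrobial response of epithelium split. Of 19 genes 6 were lower, 2 higher and 11 within 2-fold. Saa3 (chromosome 7, 46711998 to 46719615) had the bound farthest from 1 of all genes, with 6.04 RPKM on day 3 and 965 on day 1 (159.8-fold lower, 109.7 to 243). Its paralogs Saa1 and Saa2, acute phase apolipoproteins like Saa3, lay within 2-fold: Saa1 had 1286 RPKM on day 3 and 1174 on day 1 and Saa2 had 103 on day 3 and 89.3 on day 1. Lcn2, which withholds iron from bacteria, had 4.45 RPKM on day 3 and 249.5 on day 1 (56.0-fold lower, 39.6 to 82.2). It is also counted among the lower neutrophil genes above, and which cells its RNA came from was not tested. The bactericidal lectin gene Reg3b had 37.1 RPKM on day 3 and 463 on day 1 (12.5-fold lower), and its copy Reg3g had 91 reads on day 3 and 962 on day 1 (10.4-fold lower). The enzymes that make nitric oxide and hydrogen peroxide did not follow them. Nos2 had 60.4 RPKM on day 3 and 65.7 on day 1, both far from 1.41 in the control, and Duox2 had 99.3 on day 3 and 67.5 on day 1, with 25.2 in the control. Pigr, the receptor that carries IgA into the lumen, was higher, with 1714 RPKM on day 3 and 723 on day 1 (2.37-fold, 2.33 to 2.41), as was the lectin Reg4, with 487 on day 3 and 105 on day 1 (4.63-fold). Complement C3 was 6.75-fold lower (4.06 RPKM on day 3 and 27.4 on day 1) while factor B, Cfb, lay at 52.9 on day 3 and 45.3 on day 1.

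**Figure D3:**
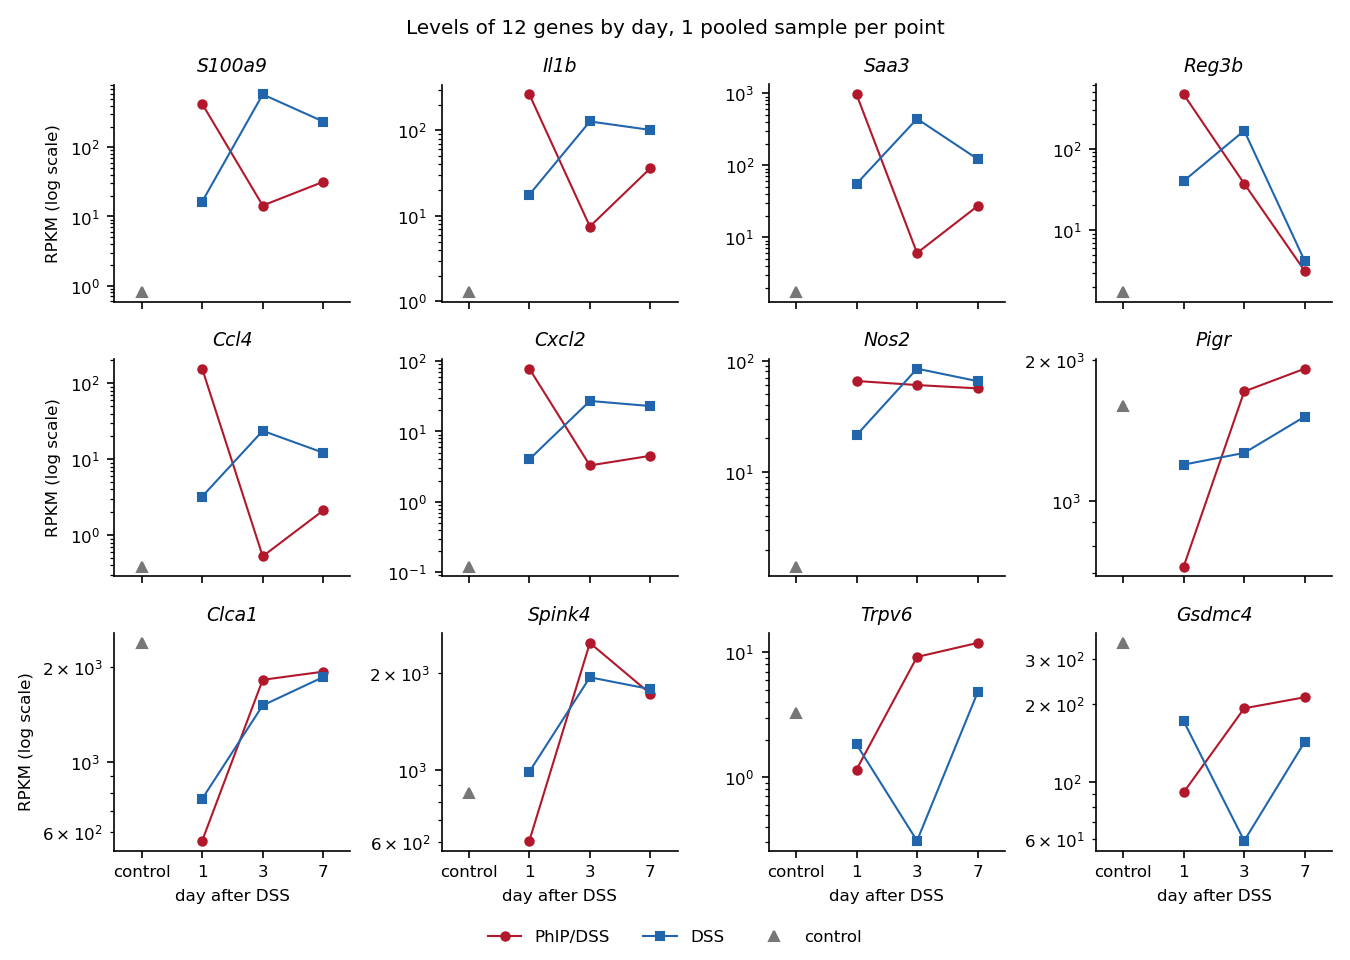
RPKM (log scale) of 12 genes in the control and on days 1, 3 and 7 in PhIP/DSS (red circles) and DSS (blue squares), 1 pooled library per point and no error bars. In PhIP/DSS, S100a9, Il1b, Saa3, Reg3b, Ccl4 and Cxcl2 lie lower on day 3 than on day 1, Nos2 is level, and Pigr, Clca1, Spink4, Trpv6 and Gsdmc4 lie higher.

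Interferon response genes were mostly level. Of 31 compared, 6 were lower, 0 higher and 25 within 2-fold (median -0.13). The lower ones were led by the chemokines Cxcl10 (6.99 RPKM on day 3 and 46.8 on day 1, 6.68-fold) and Cxcl9 (3.76 on day 3 and 11.9 on day 1, 3.18-fold), which attract T cells. Irf1 and Oasl2, the most read members, had 128 and 85.3 RPKM on day 3 and 99.0 and 72.6 on day 1. MHC class I genes and their peptide loading partners stayed within 2-fold in all 12, with B2m at 1187 RPKM on day 3 and 1476 on day 1. MHC class II genes were lower in 4 of 10. Cd74, the invariant chain, had 135 RPKM on day 3 and 314 on day 1 (2.33-fold lower), and H2-Ab1 had 45.8 on day 3 and 107 on day 1 (2.34-fold lower). Ciita, the class II master regulator, was level at 56 reads on day 3 and 52 on day 1. Macrophages and B cells carry class II genes as well as epithelium does. Summed marker levels were 217 RPM on day 3 and 1171 on day 1 for macrophages and 309 on day 3 and 368 on day 1 for B and plasma cells, and their part in the class II values was not tested.

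Of 16 genes of the prostaglandin and leukotriene pathways 7 were lower and 0 higher. Ptgs2, the inducible cyclooxygenase, had 1.14 RPKM on day 3 and 32.0 on day 1 (27.9-fold lower), and Ptges, the inducible prostaglandin E synthase, had 1.17 on day 3 and 12.1 on day 1 (10.3-fold lower). Alox5ap, which hands arachidonic acid to the leukotriene pathway, was 12.9-fold lower at 2.86 RPKM on day 3 and 36.8 on day 1. Ptgs1, the constitutive cyclooxygenase, was lower by less, with 15 reads on day 3 and 33 on day 1 (2.17-fold, 1.15 to 4.30). Within 2-fold, Ptges2 had 16.2 RPKM on day 3 and 16.7 on day 1, and Hpgd, which breaks prostaglandins down, had 85.1 on day 3 and 70.1 on day 1.

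Genes of the injured and regenerating epithelium were lower in part. Of 26, 9 were lower, 0 higher and 17 within 2-fold (median -0.80). Ly6a (Sca-1), which marks fetal-like repair epithelium in mouse colitis, had 618 RPKM on day 3 and 1079 on day 1, within 2-fold, against 196 in the control. Ecm1, an extracellular matrix protein, had 8.62 RPKM on day 3 and 57.8 on day 1 (6.70-fold lower), and the EGF receptor ligand Ereg had 2.07 on day 3 and 11.5 on day 1 (5.56-fold lower). Other members were level, among them Anxa1 (179 RPKM on day 3 and 235 on day 1), Anxa8 (146 on day 3 and 144 on day 1), Clu (54.5 on day 3 and 48.7 on day 1) and Krt18 (497 on day 3 and 605 on day 1). Genes of squamous epithelium, typical of anal skin next to the colon, were lower in 6 of 8, while the most read of them, Sfn, lay within 2-fold at 257 RPKM on day 3 and 353 on day 1. Krt5 had 0 reads on day 3 and 25 on day 1, Krt14 had 3.39 RPKM on day 3 and 7.53 on day 1, and Krt13 had 3.16 on day 3 and 6.78 on day 1. Among EGF receptor ligands and receptors, Nrg1, a ligand of stromal cells, differed most (0.677 RPKM on day 3 and 7.35 on day 1, 10.9-fold lower), and Egf was higher at 24 reads on day 3 and 10 on day 1.

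Cell division genes lay a little lower nearly throughout. Of 31 DNA replication genes, 30 had a ratio below 1 and 2 were lower by 2-fold (median -0.70), and of 28 mitosis genes 28 had a ratio below 1 and 4 were lower by 2-fold (median -0.78). Rrm2, which makes deoxynucleotides, had 12.8 RPKM on day 3 and 37.6 on day 1 (2.92-fold lower), and the mitotic kinase gene Aurka had 11.8 on day 3 and 27.4 on day 1 (2.33-fold lower). Pcna, the polymerase clamp, had 61.2 RPKM on day 3 and 99.8 on day 1. Mki67, the common marker of cycling cells, was nearer to level at 27.4 RPKM on day 3 and 32.4 on day 1, and the replicative polymerase gene Pole was level at 2.34 on day 3 and 2.26 on day 1. Chaperones of several compartments went with them. In the cytosol, Hsp90aa1 had 154 RPKM on day 3 and 325 on day 1 (2.12-fold lower) and Hspa8 had 1306 on day 3 and 2135 on day 1. In mitochondria, Hspd1 had 99.0 on day 3 and 216 on day 1 (2.19-fold lower). In the endoplasmic reticulum, Hspa5 had 224 on day 3 and 382 on day 1 and Calr 594 on day 3 and 777 on day 1, within 2-fold. Of the unfolded protein response list 2 of 25 were lower and 1 higher, and the one higher was Ern2, a stress sensor of goblet cells (54.6 RPKM on day 3 and 22.6 on day 1, 2.42-fold).

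Oxidative stress genes under NRF2 control were lower in 5 of 29 (median -0.37). Hmox1, which degrades heme, had 5.01 RPKM on day 3 and 45.2 on day 1 (9.01-fold lower), and Slc7a11, the cystine importer, had 1.49 on day 3 and 6.46 on day 1 (4.33-fold lower). Both are also made by activated macrophages. Nqo1, a classic NRF2 target of epithelium, was level at 30.7 RPKM on day 3 and 28.7 on day 1, and Gpx2, a glutathione peroxidase of the gut lining, had 667 on day 3 and 1278 on day 1 (1.92-fold lower). Genes of the aryl hydrocarbon receptor (AhR) pathway and of xenobiotic metabolism gave 2 higher and 2 lower of 25. The higher ones had few reads, with 11 on day 3 and 1 on day 1 for the export pump gene Abcc2 and 17 on day 3 and 5 on day 1 for the drug sensor gene Nr1i3. Cyp2c65, an arachidonic acid epoxygenase of the gut, had 13.8 RPKM on day 3 and 38.3 on day 1 (2.77-fold lower). The receptor gene Ahr had 3.44 RPKM on day 3 and 2.88 on day 1, and its targets Ahrr and Cyp1b1 were under the read minimum. Of 27 p53 targets 3 were lower and 0 higher. Over all genes compared, 10.1% were lower and 5.01% higher, the shares to set beside each count of this paragraph. Phlda3 had 1.20 RPKM on day 3 and 5.92 on day 1 (4.93-fold lower) and Gdf15 1.42 on day 3 and 5.73 on day 1 (4.02-fold lower), while Cdkn1a, the p21 cell cycle inhibitor, was level at 251 on day 3 and 259 on day 1. Of 28 hypoxia and glycolysis genes 1 was lower by 2-fold, Pfkfb3, an activator of glycolysis, at 9.39 RPKM on day 3 and 26.6 on day 1 (2.83-fold). Ldha had 701 RPKM on day 3 and 956 on day 1.

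Goblet cell genes held the most higher members of the 46 lists. Of 22 genes, 8 were higher on day 3, where 5.01% of all genes were, and 0 lower. Clca1, a protease that loosens the mucus, had 1816 RPKM on day 3 and 564 on day 1 (3.22-fold higher, 3.16 to 3.28), with 2374 in the control. Spink4, a protease inhibitor of goblet granules, had 2474 RPKM on day 3 and 605 on day 1 (4.09-fold higher), with 849.7 in the control. Fcgbp, a mucus gel protein, had 548 on day 3 and 225 on day 1 (2.43-fold higher). The main gel mucin Muc2 stayed within 2-fold at 807 RPKM on day 3 and 477 on day 1, against 1180.0 in the control, as did Zg16, a lectin that binds gram-positive bacteria, at 6180.2 on day 3 and 3738 on day 1. The lineage factors Atoh1 and Spdef had 53.4 and 56.9 RPKM on day 3 and 27.3 and 33.7 on day 1, also within 2-fold. Mptx1, a mucosal pentraxin, differed most, with 59.1 RPKM on day 3 and 5.11 on day 1 (11.6-fold higher, 8.19 to 16.9), and both were far from 1804 in the control. In the CLCA family, 3 of 6 were higher, including Clca3a1 (2.79 RPKM on day 3 and 1.01 on day 1) and Clca3a2 (4.55 on day 3 and 2.18 on day 1). Clca4a and Clca4b, close copies that may share reads, had 322 and 426 RPKM on day 3 and 366 and 239.9 on day 1.

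**Figure D4:**
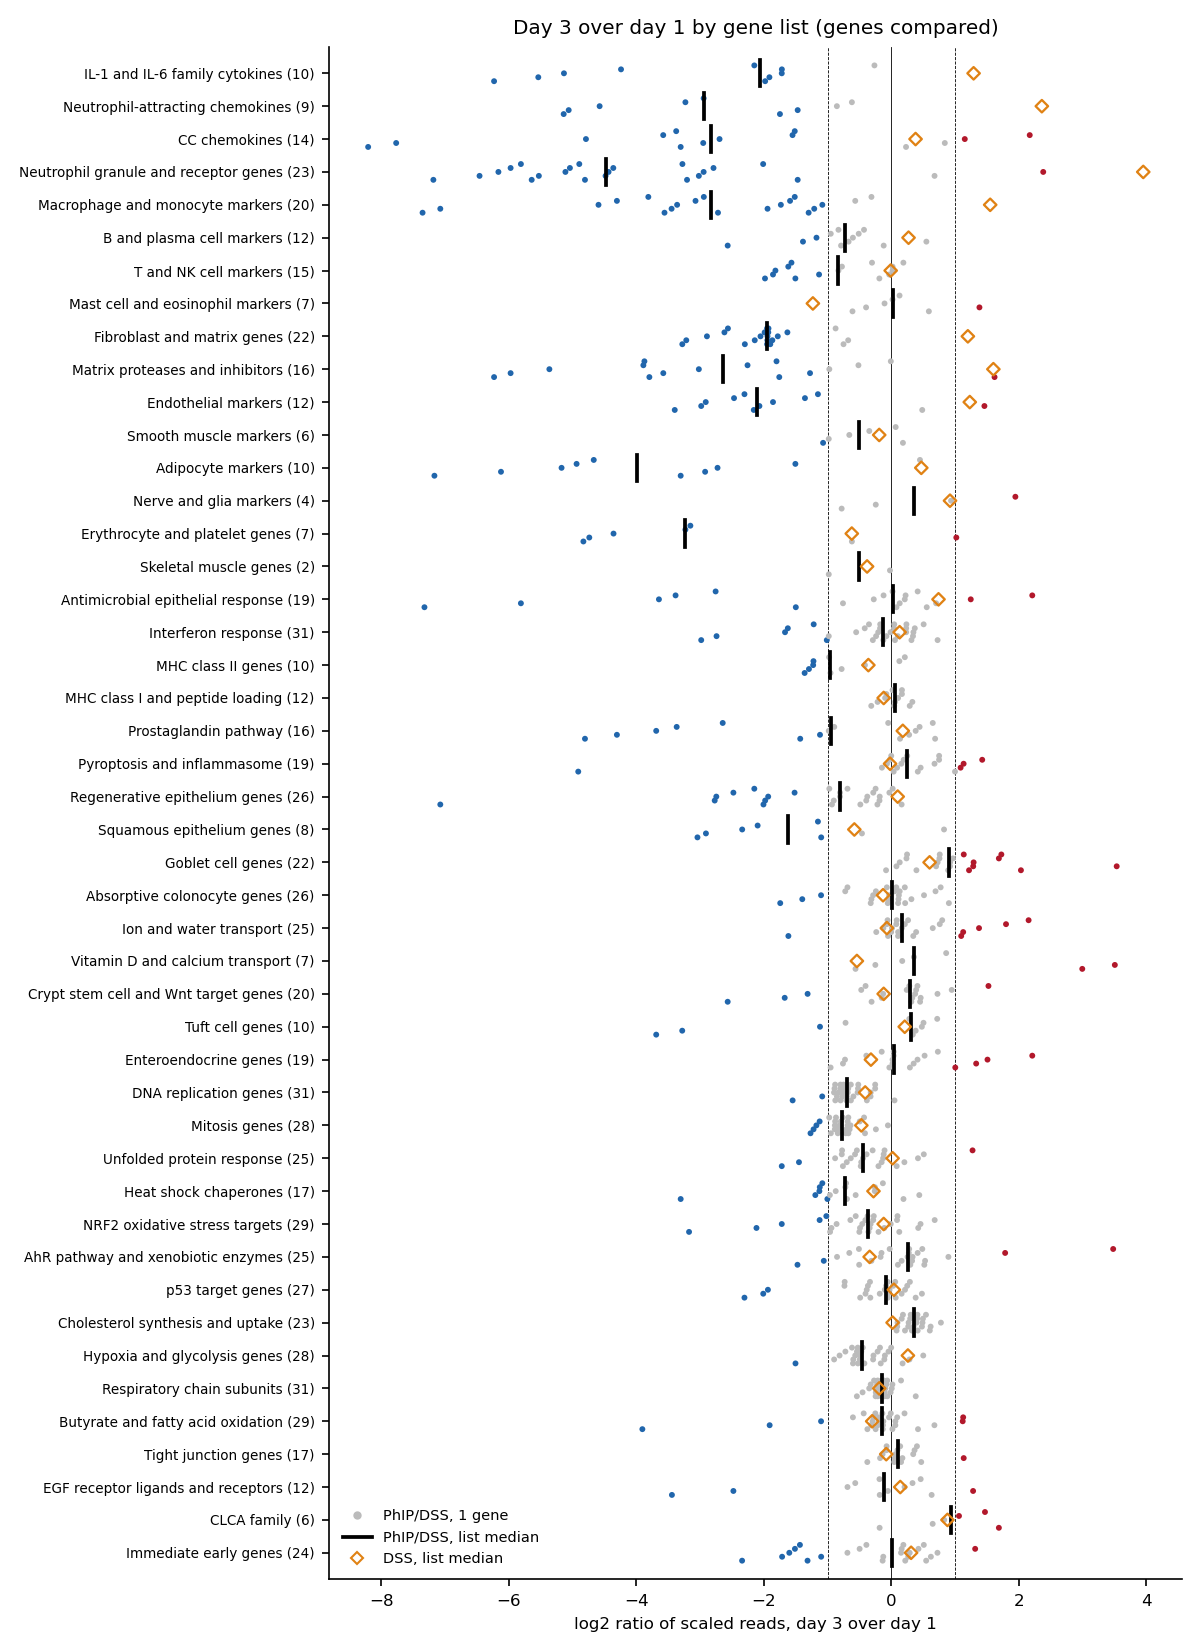
Log2 ratio of day 3 over day 1 in PhIP/DSS for each compared gene of the 46 lists (points, red and blue past 2-fold, number of genes in brackets), with the list median (black bar) and the median of the same list in DSS (open orange diamond). Neutrophil genes have medians of -4.48 in PhIP/DSS and 3.95 in DSS, and goblet cell genes 0.91 in PhIP/DSS and 0.60 in DSS.

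Absorptive colonocyte genes were level as a list, with 0 higher and 3 lower of 26, where 5.01% and 10.1% of all genes were. Car1, a carbonic anhydrase of the proximal colon, had 714 RPKM on day 3 and 1881 on day 1 (2.63-fold lower), against 368 in the control. Alpi, the intestinal alkaline phosphatase, had 14.5 on day 3 and 48.4 on day 1 (3.34-fold lower). Lypd8, which keeps flagellated bacteria off the surface and was the most abundant gene of all 7 libraries, had 15512 RPKM on day 3 and 9596 on day 1. The surface genes Slc26a3 (149.7 on day 3 and 139 on day 1) and Aqp8 (281 on day 3 and 267 on day 1) were also level.

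Ion and water transport genes were higher in 5 of 25 and lower in 1. Atp12a, the colonic proton-potassium pump, had 148 RPKM on day 3 and 33.4 on day 1 (4.45-fold higher), with 194 in the control. Ano1, a calcium-gated chloride channel, had 71.3 RPKM on day 3 and 20.5 on day 1 (3.48-fold higher), with 91.0 in the control. Best2, a bicarbonate channel of goblet cells, had 21.8 on day 3 and 8.42 on day 1 (2.59-fold higher), and Slc5a8, the butyrate importer, had 73.0 on day 3 and 33.4 on day 1 (2.18-fold higher). Slc9a3, the sodium-proton exchanger of sodium absorption, went the other way, at 29.9 RPKM on day 3 and 91.6 on day 1 (3.06-fold lower). Atp1b1, a subunit of the sodium pump, was level at 647 RPKM on day 3 and 643 on day 1. Calcium transport stood out by its ratios. Trpv6, the apical calcium channel, had 9.19 RPKM on day 3 and 1.15 on day 1 (7.97-fold higher, 5.40 to 12.2), and S100g, calbindin-D9k, had 56 reads on day 3 and 5 on day 1 (11.3-fold higher, 4.58 to 36.3). Their inducer, the vitamin D receptor gene Vdr, lay within 2-fold at 97.8 RPKM on day 3 and 53.9 on day 1.

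Gasdermins, whose cut forms open pores in membranes, gave the 3 higher genes of the 19 on the pyroptosis list, all of the Gsdmc group. Gsdmc had 53 reads on day 3 and 20 on day 1 (2.69-fold higher). Gsdmc4 had 193 RPKM on day 3 and 91.1 on day 1 (2.12-fold higher), Gsdmc3 had 23.3 on day 3 and 10.6 on day 1 (2.19-fold higher) and Gsdmc2 89.3 on day 3 and 55.8 on day 1 (1.60-fold). These are near-identical copies, so reads may have been split between them. Gsdmd, the executor of inflammatory cell death, was level at 107 RPKM on day 3 and 93.3 on day 1, as was Casp1 at 124 on day 3 and 126 on day 1. Nlrp3, the inflammasome sensor of myeloid cells, was the one lower member of the list, with 0.266 RPKM on day 3 and 7.98 on day 1 (interval of the fold 15.6 to 66.4). The epithelial sensors Nlrp6 (64.4 on day 3 and 62.8 on day 1) and Naip1 (54.0 on day 3 and 54.0 on day 1) were level.

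Crypt base and rare cell types gave small counts. Of 20 stem cell and Wnt target genes 1 was higher and 3 lower, where 5.01% and 10.1% of all genes were. Smoc2, a stem cell matrix protein, had 14.5 RPKM on day 3 and 5.05 on day 1 (2.87-fold higher), and Lgr5, the Wnt co-receptor that marks stem cells, had 78 reads on day 3 and 41 on day 1 (1.93-fold, 1.30 to 2.89). Cd44, which leukocytes also carry, had 12.5 RPKM on day 3 and 39.8 on day 1 (3.19-fold lower). Tuft cell genes were lower in 3 of 10, among them Alox5ap and Ptgs1, which leukocytes share, while Dclk1 (55 reads on day 3 and 40 on day 1) and Trpm5 (28 on day 3 and 20 on day 1) were within 2-fold. Enteroendocrine genes were higher in 4 of 19. Insl5, a hormone of distal colon cells, had 134 RPKM on day 3 and 66.7 on day 1 (2.00-fold) and somatostatin, Sst, 67 reads on day 3 and 27 on day 1 (2.51-fold), while the granule proteins Chga and Chgb were level at 47.5 and 68.4 RPKM on day 3 and 46.3 and 66.7 on day 1.

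Cholesterol genes and respiratory chain subunits differed little. All 23 cholesterol genes had a ratio above 1 and 0 reached 2-fold (median 0.35), with Hmgcs1 at 124 RPKM on day 3 and 80.7 on day 1 and Srebf2, their master regulator, at 79.0 on day 3 and 69.6 on day 1. All 31 respiratory chain subunits lay within 2-fold (median -0.15), among them Atp5b at 1022 RPKM on day 3 and 1101 on day 1. Of 29 genes of butyrate use and fatty acid oxidation 2 were higher and 3 lower, where 5.01% and 10.1% of all genes were. Acsm3, a medium-chain acyl-CoA synthetase, had 49.2 RPKM on day 3 and 22.7 on day 1 (2.17-fold higher), while Angptl4, an inhibitor of lipoprotein lipase that adipocytes also make, had 6 reads on day 3 and 91 on day 1 (interval of the fold 6.62 to 41.9) and Pdk4, which closes the entry of pyruvate into mitochondria, 2.44 RPKM on day 3 and 9.16 on day 1 (3.75-fold lower). Of 17 tight junction genes 1 was higher, the claudin gene Cldn8 (37.0 RPKM on day 3 and 16.9 on day 1, 2.20-fold), and Cldn3 was level at 654 on day 3 and 633 on day 1. Immediate early genes gave 1 higher and 7 lower of 24. Socs3, the feedback inhibitor of IL-6 signalling, had 27.4 RPKM on day 3 and 89.7 on day 1 (3.28-fold lower), and Nfkbia, that of NF-kB, 70.1 on day 3 and 150.3 on day 1 (2.14-fold lower). Fosb was higher at 7.62 RPKM on day 3 and 3.07 on day 1 (2.49-fold), and Klf4, a factor of mature goblet and surface cells and the most read of the list, had 375 on day 3 and 227 on day 1 (1.65-fold).

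The 12 lowest and 12 highest genes, ranked by the interval bound nearest 1, add some that no list held. Hp, haptoglobin, which binds free hemoglobin, lies on chromosome 8 (109575128 to 109579172) and had 1.22 RPKM on day 3 and 185 on day 1 (152-fold lower, 90.5 to 279). F10, clotting factor X, had 3 reads on day 3 and 441 on day 1 (145-fold lower, 49.3 to 706). Acod1, which makes itaconate in activated macrophages, had 1.33 RPKM on day 3 and 55.5 on day 1 (41.8-fold lower). Ucp1, the heat-producing uncoupler of brown fat, had 0 reads on day 3 and 109 on day 1. At the floor of 3 reads it was 35.9-fold lower (interval from 28.7 up). On the other side Trpv3 (chromosome 11, 73267489 to 73300368), a warmth-gated cation channel, had 7.69 RPKM on day 3 and 0.432 on day 1 (17.8-fold higher, 9.14 to 39.6). Casp14, a caspase known from the cornified layer of skin, had 169 reads on day 3 and 11 on day 1 (15.6-fold higher, 8.48 to 31.8). Ctse, the aspartic protease cathepsin E, had 58.0 RPKM on day 3 and 6.80 on day 1 (8.53-fold higher), and the sugar phosphate transporter gene Slc37a2 had 11.8 on day 3 and 1.53 on day 1 (7.70-fold higher). Timp4, Serpina9 and Slc6a20a had 28, 25 and 23 reads on day 3 and 0 on day 1. At the floor of 3 reads they were 9.46-, 8.44- and 7.77-fold higher (intervals from 7.20, 6.37 and 5.82 up). Adcy8 and Itih2 rest on 1 read each on day 1, so their ratios of 41.5 and 35.5 carry intervals of 7.05 to 1680.5 and 5.96 to 1440.3. The remaining 2 of the highest were AI854703 (8.17-fold) and Hoxd13 (6.88-fold). The control held 19.5 RPKM of Trpv3, 24.2 of Casp14, 97.3 of Slc37a2 and 8.27 of Itih2.

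The same 2 days gave another pattern in mice that had DSS without PhIP. There 824 of 13477 genes (6.11%) were higher on day 3 and 323 (2.40%) lower, with no library shared between the arms. Of the 1220 genes lower in PhIP/DSS and compared in both arms, 532 (43.6%) were higher in DSS, 61 (5.00%) lower and 627 within 2-fold. Taken from the DSS side, 68.2% of the 780 higher genes compared in both arms were lower in PhIP/DSS. Of the 629 genes higher in PhIP/DSS and compared in both, 62 (9.86%) were higher in DSS as well, 52 (8.27%) were lower and 515 lay within 2-fold. From the DSS side, 18.6% of its 280 lower genes were higher in PhIP/DSS. Across 13248 genes the log2 ratios of the arms had a Pearson r of -0.40 and a Spearman rho of 0.02. Both describe genes within 4 libraries of like depth and say nothing of replicates. The difference between the arms was not tested.

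S100a9, Saa3 and Lcn2 differed in opposite directions in the arms. S100a9 had 14.4 RPKM on day 3 and 426 on day 1 in PhIP/DSS, and 583 on day 3 and 16.4 on day 1 in DSS, with 0.802 in the control. Saa3 had 6.04 RPKM on day 3 and 965 on day 1 in PhIP/DSS, and 442 on day 3 and 55.2 on day 1 in DSS. Lcn2 had 4.45 on day 3 and 249.5 on day 1 in PhIP/DSS, and 253 on day 3 and 11.3 on day 1 in DSS. The high libraries for these genes were thus PhIP/DSS day 1 and DSS day 3. The labels were used as given, and whether libraries were exchanged between days or arms was not tested. The direction of the ratios and the contrast of the arms depend on those labels. Median log2 ratios had opposite signs, both past 2-fold, in 7 lists: cytokines (-2.06 in PhIP/DSS and 1.29 in DSS), neutrophil-attracting chemokines (-2.94 in PhIP/DSS and 2.36 in DSS), neutrophil genes (-4.48 in PhIP/DSS and 3.95 in DSS), macrophage markers (-2.83 in PhIP/DSS and 1.55 in DSS), fibroblast genes (-1.95 in PhIP/DSS and 1.20 in DSS), matrix proteases (-2.64 in PhIP/DSS and 1.60 in DSS) and endothelial markers (-2.11 in PhIP/DSS and 1.23 in DSS). Gsdmc4 and Trpv6, higher on day 3 in PhIP/DSS, were lower in DSS. Gsdmc4 had 59.1 RPKM on day 3 and 172 on day 1 in DSS (2.91-fold lower), and Trpv6 had 0.309 on day 3 and 1.83 on day 1 (5.91-fold lower). Among genes of fat and blood, Fabp4 was at 1.59 RPKM on day 3 and 0.532 on day 1 and Hbb-bs at 8.38 on day 3 and 16.3 on day 1 in DSS.

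Some groups went the same way in both arms. Goblet cell genes had medians of 0.91 in PhIP/DSS and 0.60 in DSS, and the CLCA family 0.94 in PhIP/DSS and 0.88 in DSS. Clca1 had 1508 RPKM on day 3 and 765 on day 1 in DSS (1.97-fold), and Cd177, the neutrophil list's exception, 168 on day 3 and 72.6 on day 1 (2.31-fold). DNA replication and mitosis genes had medians of -0.41 and -0.47 in DSS, against -0.70 and -0.78 in PhIP/DSS. Car1 was 2.28-fold lower in DSS, at 669 RPKM on day 3 and 1527 on day 1, and Mmp7 9.15-fold higher, at 52.5 on day 3 and 5.74 on day 1. Nos2, level in PhIP/DSS, had 84.8 RPKM on day 3 and 21.4 on day 1 in DSS, and Pigr, higher in PhIP/DSS, had 1266 on day 3 and 1195 on day 1.

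**Figure D5:**
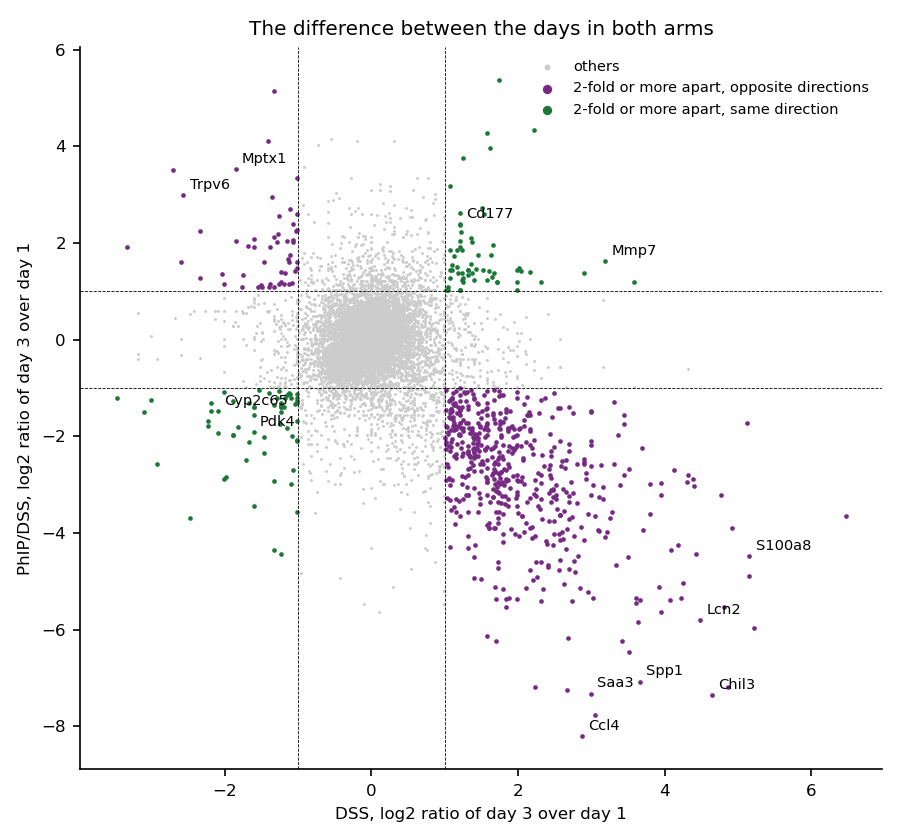
Log2 ratio of day 3 over day 1 in PhIP/DSS (vertical) and in DSS (horizontal) for the 13248 genes compared in both arms, dashed lines at 2-fold, with purple for genes past 2-fold in opposite directions and green for the same direction. The lower right corner holds the 532 genes lower in PhIP/DSS and higher in DSS, with Chil3, Spp1, Saa3 and Ccl4 among them.

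On day 7 of PhIP/DSS, Il1b and S100a9 stood between the earlier days. Il1b had 263, 7.51 and 36.1 RPKM on days 1, 3 and 7, with 1.28 in the control, and S100a9 had 426, 14.4 and 31.7 on those days, with 0.802 in the control. Reg3b was lower on each later day, at 463, 37.1 and 3.14 RPKM on days 1, 3 and 7, with 1.72 in the control. Clca1 had 564, 1816 and 1927 RPKM on days 1, 3 and 7, and Trpv6 1.15, 9.19 and 11.9 on those days, with 3.28 in the control. Car1 stood at 1881, 714 and 345 RPKM on the 3 days and at 368 in the control.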

How the data were processed

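The deposited tables give, for each of the 7 pooled libraries, the authors' unique read count per gene and its RPKM. The RPKM deposited by the authors follows from the reads and the stated gene length to within 7.8e-14 of its value. The genome build was mm10, per the submitters' processing notes, while for the aligner, the counter and whether strand was used, the labels and headers name nothing. Reads of near-identical copies and of antisense genes may therefore be mixed. Libraries were joined by gene ID, and a missing gene was set to 0 reads. Genes with at least 10 reads over the pair were compared by the ratio of reads per 1000000 unique reads, day 3 over day 1, with 3 reads in place of 0 and exact 95% intervals of the ratio. Depth was about equal, between 7.66 M and 8.78 M reads (M stands for 1000000). With 1 library a group no test was made. Named were the 12 highest and 12 lowest genes by the interval bound nearest 1, 2 members of each list with the most reads, 2 members at least 2-fold apart with the bound farthest from 1, markers at 0 reads, and single genes that account for a list. Members and lists were chosen with earlier results of these data known. The 46 lists held 841 genes with reads in at least 1 library. A further 24 list genes had no read in any library, and 3 entries were matched to no ID. Promoter windows came from RefSeq (GRCm38.p6). Scaling by TMM (edgeR 4.0.16 in R 4.3.3) and by median-of-ratios, other read minimums and thresholds, and RPKM on a log2 scale were tried as alternatives. The code, in Python 3.11.15 with pandas 2.3.3 and SciPy 1.17.1, was tested on simulated counts.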

Additional observations from a re-analysis of the deposited data

Results flagged for a closer look

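The results below have log2 ratios of day 3 over day 1 that are past 2-fold in both arms and opposite in sign. Each arm is 1 library a day, so the difference between the arms was not tested. Among lists, the median was -2.06 in PhIP/DSS and 1.29 in DSS for IL-1 and IL-6 family cytokines. It was -2.94 in PhIP/DSS and 2.36 in DSS for neutrophil-attracting chemokines, and -4.48 in PhIP/DSS and 3.95 in DSS for neutrophil genes. Macrophage markers had -2.83 in PhIP/DSS and 1.55 in DSS, and fibroblast genes -1.95 in PhIP/DSS and 1.20 in DSS. Matrix proteases had -2.64 in PhIP/DSS and 1.60 in DSS, and endothelial markers -2.11 in PhIP/DSS and 1.23 in DSS. Other lists of leukocytes, stroma and their signals are not among these. The median was -0.83 in PhIP/DSS and -0.01 in DSS for T and NK cell markers. For B and plasma cell markers it was -0.73 in PhIP/DSS and 0.27 in DSS. Smooth muscle markers had -0.50 in PhIP/DSS and -0.19 in DSS, and CC chemokines -2.82 in PhIP/DSS and 0.38 in DSS.

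Of the 12 lowest genes 10 differ in this way, and Cfd and Ucp1 had too few reads in DSS to be compared there. Saa3 had a log2 ratio of -7.32 in PhIP/DSS and 3.00 in DSS, and Hp -7.25 in PhIP/DSS and 2.67 in DSS. Both code for proteins of the acute phase. The chemokine genes had -8.20 in PhIP/DSS and 2.87 in DSS for Ccl4, and -7.76 in PhIP/DSS and 3.05 in DSS for Ccl3. Spp1 had -7.07 in PhIP/DSS and 3.66 in DSS, and Chil3 -7.35 in PhIP/DSS and 4.65 in DSS. Macrophages are a known source of these 2. F10 had -7.18 in PhIP/DSS and 2.23 in DSS, and Clec4e -6.46 in PhIP/DSS and 3.52 in DSS. Lcn2 had -5.81 in PhIP/DSS and 4.49 in DSS, and Acod1 -5.38 in PhIP/DSS and 3.66 in DSS. Of the 12 highest genes 3 do. Mptx1 had 3.53 in PhIP/DSS and -1.85 in DSS, Itih2 5.15 in PhIP/DSS and -1.33 in DSS, and Slc37a2 2.95 in PhIP/DSS and -1.36 in DSS.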

How the results depend on the processing

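The number of genes higher on day 3 was 682 by the rule used. It was 434 with a minimum of 30 reads, 1081 with no minimum, 1543 at 1.5-fold, 142 at 4-fold, 194 where the whole counting interval had to lie past 2-fold, and 220 by a difference of 1 in log2(RPKM + 1). The number lower on day 3 was 1368, and it was 2371 at 1.5-fold, 621 at 4-fold, 661 by the interval and 647 by log2(RPKM + 1). In DSS alone log2(RPKM + 1) gave 281 higher genes in place of 824 and 50 lower genes in place of 323. A pseudocount shrinks the ratio of genes of low RPKM by construction. In PhIP/DSS the genes lower outnumbered the genes higher under each setting tried there, and in DSS the genes higher outnumbered the genes lower under the 3 tried there (TMM, median-of-ratios and log2(RPKM + 1)). TMM and median-of-ratios scaling moved the median log2 ratio of all genes to 0.00 and -0.01, from -0.04, and each count by less than 1.5 times. Of 276 list medians recomputed, 274 kept their side of 2-fold, and under log2(RPKM + 1) the medians of endothelial markers (-0.71) and squamous genes (-0.86) came within it. Of the 276 medians 7, in 5 lists all within 2-fold, changed sign: tuft cell genes (0.31) to -0.39 with a minimum of 30 reads, mast cell markers (0.02) to -0.11 with no minimum, EGF receptor genes (-0.12) to 0.21 and antimicrobial genes (0.02) to -0.20 without genes that stand in another list, and immediate early genes (0.01) to between -0.13 and -0.01 in 3 settings. Of 72 values of the 12 lowest and 12 highest genes all kept their direction and 71 their side of 2-fold, and Adcy8 (0.94) came within it under log2(RPKM + 1). No paired analysis was possible because each group is 1 library. For the same reason no library could be left out, and the spread between animals is not known. A count of 0 leaves up to 3 reads, so genes of a few reads carry wide intervals.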

Other observations

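The genes named here were chosen after their values had been seen, so they describe these libraries only. Over all genes compared, 5.01% were higher and 10.1% lower on day 3 in PhIP/DSS. Hoxd genes, which specify position along the hindgut, were higher on day 3 in 5 of 5 compared. Hoxd13 had 51.6 RPKM on day 3 and 7.50 on day 1 in PhIP/DSS (6.88-fold), 11.3 on day 3 and 21.5 on day 1 in DSS, and 50.6 in the control. Hoxd10, Hoxd11, Hoxd12 and Hoxd9 were 7.32-, 6.51-, 4.15- and 3.04-fold higher. The Hoxb cluster had 1 higher and 2 lower of 5. Its higher gene was Hoxb13, the last gene of its cluster and a mark of the distal colon, with 196 RPKM on day 3 and 58.1 on day 1 (3.37-fold higher), against 134 on day 3 and 136 on day 1 in DSS and 320.3 in the control. The Hoxa cluster had 0 higher and 1 lower of 11, with Hoxa13 at 23.8 on day 3 and 20.4 on day 1. Car1, typical of the proximal colon, was 2.63-fold lower in PhIP/DSS and 2.28-fold lower in DSS. Where along the colon each pool was taken is not given in the labels, and its part in these values was not tested.

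Brown fat genes were lower in 5 of 6 compared. Ucp1, Cidea and Cox8b had 0 reads each on day 3 and 109, 51 and 26 on day 1. Cyp2e1 had 1 read on day 3 and 80 on day 1. The fifth lower gene, Dio2, had 6 reads on day 3 and 96 on day 1. In DSS, Dio2 had 67 reads on day 3 and 11 on day 1, while Ucp1 and Cox8b had 0 on both days. The muscle and fat gene Cox7a1 was level at 46.8 RPKM on day 3 and 43.5 on day 1. Pan-leukocyte genes were lower in 11 of 12, and summed to 1179, 154 and 366 RPM on days 1, 3 and 7 in PhIP/DSS, with 136 in the control. Ptprc, which codes for CD45, had 2.13 RPKM on day 3 and 10.1 on day 1.

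Among enzymes that build mucin and glycolipid sugars, 2 of 8 B3gnt genes were higher and 0 lower. Of 6 fucosyltransferase genes 2 were higher and 0 lower, and of 14 sialyltransferase genes 3 were higher and 3 lower. Over all genes compared, 5.01% were higher and 10.1% lower. B3gnt7, which extends keratan-type chains, had 281 RPKM on day 3 and 64.3 on day 1 (4.37-fold higher), against 154 on day 3 and 175 on day 1 in DSS and 509.8 in the control. The fucosyltransferase gene Fut9 had 3.16 RPKM on day 3 and 0.479 on day 1 (6.60-fold higher), and the sialyltransferase gene St6gal1 24.6 on day 3 and 7.48 on day 1 (3.28-fold higher). The lower sialyltransferase genes were St3gal1 (2.54-fold), St3gal5 (4.74-fold) and St8sia4 (5.59-fold). Fut2, which makes the H antigen, was level at 3073 reads on day 3 and 3267 on day 1.

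Transglutaminase genes were higher in 2 and lower in 3 of 7, where 5.01% and 10.1% of all genes were. Tgm3, a protein cross-linking enzyme, had 169 RPKM on day 3 and 35.2 on day 1 (4.79-fold higher), 55.0 on day 3 and 111 on day 1 in DSS and 542 in the control. Its relative Tgm2 was lower, at 38.5 RPKM on day 3 and 94.1 on day 1 (2.44-fold). The metallothionein genes Mt1 and Mt2, which bind zinc, were 2.71- and 4.64-fold lower, at 238 and 63.0 RPKM on day 3 and 646 and 292 on day 1, while in DSS they were at 619 and 289 on day 3 and 619.9 and 269.7 on day 1. Fkbp5, a glucocorticoid-induced gene, had 13.6 RPKM on day 3 and 63.5 on day 1 (4.67-fold lower), 77.4 on day 3 and 61.0 on day 1 in DSS, and 21.1 in the control. Of 10 genes of that kind 3 were lower and 0 higher. The other lower ones were Dusp1, with 393 reads on day 3 and 990 on day 1 (2.49-fold), and Zbtb16, with 6 on day 3 and 32 on day 1 (5.26-fold). Tsc22d3 lay within 2-fold at 17.3 RPKM on day 3 and 22.1 on day 1, as did Per1 at 7.05 on day 3 and 8.92 on day 1.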
